A study of Homo sapiens with 4 samples.

Results

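Chromatin loops with an anchor at the promoter of a long non-coding RNA (lncRNA) and no anchor at the promoter of a coding gene were followed in HepG2 cells, an established human hepatocellular carcinoma line, with and without pyridostatin (PDS). A loop belonged to the set when at least 1 of its anchors reached within 1 kb of a transcript start of a lncRNA gene in the GENCODE annotation of GRCh38, when neither anchor reached within 1 kb of a coding start, and when its anchors did not both lie inside the body of one coding gene. By this rule 5721 of the 77862 loops listed under either condition (7.35%) were lncRNA promoter loops. The rule did not use the number of paired-end tags (PETs, the read pairs that join the anchors), which is the measurement compared here.

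The loops came from HiChIP, which ligates DNA ends that lie close together in the nucleus and then pulls down the fragments held by an antibody, here one against POLR2A, the largest subunit of RNA polymerase II. Mock cells had received the vehicle, sterilized water, and treated cells 20 µM PDS, both for 24 h, with 2 biological replicates per condition; the chromatin was cut with MboI, and all cells were HepG2 with no genetic change stated. The authors deposited 1 combined loop list per condition, so the spread between replicates cannot be seen, no test between conditions was possible, and each 95% interval given here covers counting error only. Over all classes 66417 loops were listed for mock cells, supported by 254647 PETs, against 18778 loops and 67001 PETs for PDS cells, and neither list holds a loop of fewer than 3 PETs. A loop missing from a list therefore had 0 to 2 PETs there or was not called, which cannot be told apart. As a check of the cell line, 15 of 16 hepatocyte genes looked up had a mock loop at their coding promoter (13 loops for ALB, 7 for FOXA2), as had 6 of 10 genes of blood, fibroblast and endothelial cells, while PTPRC, HBB, COL1A2 and DCN had none.

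LncRNAs are transcripts of RNA polymerase II that are spliced and capped like mRNAs but encode no known protein. Some act from the nucleus, some serve as precursors from which microRNAs or small nucleolar RNAs are cut, and at others the act of transcription or the promoter DNA is the working part, since a lncRNA promoter can touch other regulatory DNA much as an enhancer does. A G-quadruplex (G4) is a fold of stacked G bases formed by DNA with several runs of G, frequent at active promoters, and PDS is a small molecule that binds and stabilizes it.

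To show what such promoters look like, 6 are printed here from the RefSeq promoter set (GRCh38.p14), each running from 250 bases before to 50 bases after a start, 5′ to 3′ along the gene, and each lying on an anchor of its own gene's lncRNA promoter loops. Capitals mark a G4 motif, defined as 4 runs of at least 3 G with 1 to 7 bases of any kind between them, or the same in C where the motif is on the opposite strand. MIR193BHG (chr16:14301131-14301430, plus strand), the gene with the strongest single loop, and LINC00511 (chr17:72640423-72640722, minus strand), the gene with most loops, carried a motif on their own strand. The printed MIR193BHG promoter is not on that strongest loop, whose anchors begin at chr16:14310058, but on another anchor of the gene. MALAT1 (chr11:65497488-65497787, plus strand) and LINC02970 (chr20:62603392-62603691, minus strand), the latter at the loop with most PETs after PDS, carried it on the opposite strand, MIR23AHG (chr19:13842869-13843168, minus strand) held 3 motifs, and LINC00261 (chr20:22578593-22578892, minus strand), a liver and endoderm lncRNA, is shown as one without. A further RefSeq promoter of MALAT1 on its anchors (chr11:65498795-65499094), not printed, held no motif.
MIR193BHG: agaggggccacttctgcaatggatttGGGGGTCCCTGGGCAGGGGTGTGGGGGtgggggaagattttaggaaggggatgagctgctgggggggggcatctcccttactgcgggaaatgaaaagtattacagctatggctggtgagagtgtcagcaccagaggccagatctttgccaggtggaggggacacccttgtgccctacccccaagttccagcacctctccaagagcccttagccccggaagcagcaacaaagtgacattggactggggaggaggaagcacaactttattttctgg
LINC00511: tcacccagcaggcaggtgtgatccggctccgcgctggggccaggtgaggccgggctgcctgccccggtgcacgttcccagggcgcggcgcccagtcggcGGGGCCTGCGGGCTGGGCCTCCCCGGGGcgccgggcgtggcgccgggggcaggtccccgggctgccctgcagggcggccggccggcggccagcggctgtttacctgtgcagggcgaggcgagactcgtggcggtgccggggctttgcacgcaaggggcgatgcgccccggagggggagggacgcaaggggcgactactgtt
MALAT1: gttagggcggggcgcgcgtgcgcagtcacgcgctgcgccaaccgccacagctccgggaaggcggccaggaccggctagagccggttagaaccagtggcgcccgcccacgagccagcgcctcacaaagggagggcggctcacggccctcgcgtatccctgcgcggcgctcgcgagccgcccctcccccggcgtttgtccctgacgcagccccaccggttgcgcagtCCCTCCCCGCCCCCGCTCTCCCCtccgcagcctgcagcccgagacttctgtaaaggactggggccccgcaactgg
LINC02970: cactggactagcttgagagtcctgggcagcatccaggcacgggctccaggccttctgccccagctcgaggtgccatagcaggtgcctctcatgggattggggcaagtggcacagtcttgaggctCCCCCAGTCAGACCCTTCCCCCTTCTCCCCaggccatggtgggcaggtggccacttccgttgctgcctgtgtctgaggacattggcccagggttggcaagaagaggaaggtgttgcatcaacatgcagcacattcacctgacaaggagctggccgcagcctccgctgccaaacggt
MIR23AHG: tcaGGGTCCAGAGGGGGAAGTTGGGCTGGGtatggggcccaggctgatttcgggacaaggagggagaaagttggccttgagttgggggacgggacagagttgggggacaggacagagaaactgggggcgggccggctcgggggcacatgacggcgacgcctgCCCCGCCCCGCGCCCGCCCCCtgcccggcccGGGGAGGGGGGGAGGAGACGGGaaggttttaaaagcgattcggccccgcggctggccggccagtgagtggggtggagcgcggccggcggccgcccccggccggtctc
LINC00261: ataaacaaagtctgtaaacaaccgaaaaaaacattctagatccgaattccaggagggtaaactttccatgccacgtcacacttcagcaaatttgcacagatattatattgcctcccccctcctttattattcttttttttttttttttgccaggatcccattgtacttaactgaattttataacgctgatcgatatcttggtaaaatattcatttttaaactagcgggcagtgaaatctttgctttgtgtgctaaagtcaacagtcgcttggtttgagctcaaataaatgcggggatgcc
Of all 35116 RefSeq promoters of this length 25.0% held such a motif, against 15.6% of the 12917 lncRNA promoters and 30.4% of the 22199 coding ones. Among the 500 RefSeq promoters that lay on an anchor of their own lncRNA promoter loops the share was 14.4% (11.6 to 17.7%), so promoters at these anchors held the motif about as often as lncRNA promoters at large. A match is a run of letters and does not show that a quadruplex forms.

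Far fewer lncRNA promoter loops were listed after PDS. Mock cells had 4828 of them, supported by 18477 PETs, and PDS cells had 1485, supported by 5195, a ratio of 0.308 in number (0.290 to 0.326) and of 0.281 in PETs (0.273 to 0.290). The whole PDS list was smaller to nearly the same degree, and lncRNA promoter loops were 7.27% of mock loops (7.07 to 7.47%) and 7.91% of PDS loops (7.53 to 8.30%). How many read pairs were sequenced for each list is not given in the sources used here. The part of sequencing depth in the ratios of loop number and PETs was therefore not tested. Relative to the PETs in each list, the share in lncRNA promoter loops was 1.07 times as high after PDS (1.04 to 1.10). Loops with a coding promoter anchor had a lower ratio, going from 30535 to 7768 (0.254, 0.248 to 0.261), and loops with no promoter anchor a like one, going from 30121 to 9226 (0.306, 0.299 to 0.314). The ratio of lncRNA promoter loops was 1.21 times that of coding promoter loops (1.13 to 1.29) and 1.00 times that of loops with no promoter anchor (0.943 to 1.07). The excess over coding promoter loops was found on chromosomes 2, 6, 14, 16, 17 and 20 (1.24 times, 1.15 to 1.34), which were set apart because HepG2 is generally known to carry extra copies of them, though copy number was not measured here. It was within counting error on the other chromosomes (1.06 times, 0.953 to 1.19).

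The more PETs were required of a loop, the lower the ratio was. The part of sequencing depth in this course was not tested either. Loops of 3 PETs, the lowest count listed, made up 58.5% of mock and 67.8% of PDS lncRNA promoter loops, and the highest count was 20 in the mock and 13 in the PDS list. With at least 5 PETs required in each list 925 mock loops stood against 165 PDS loops (ratio 0.178, 0.151 to 0.210), with at least 7 there were 256 against 18 (0.0703, 0.0438 to 0.113), and with at least 10 there were 43 against 2 (0.0465, 0.0124 to 0.174). The coding promoter loops had the same course, with 6169 against 773 loops at 5 PETs or more and 334 against 12 at 10 or more. Loops with no promoter anchor did not follow it to the end, with a ratio of 0.104 (0.0866 to 0.125) at 7 PETs or more and of 0.154 (0.108 to 0.220) at 10 or more.

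**Figure D1:**
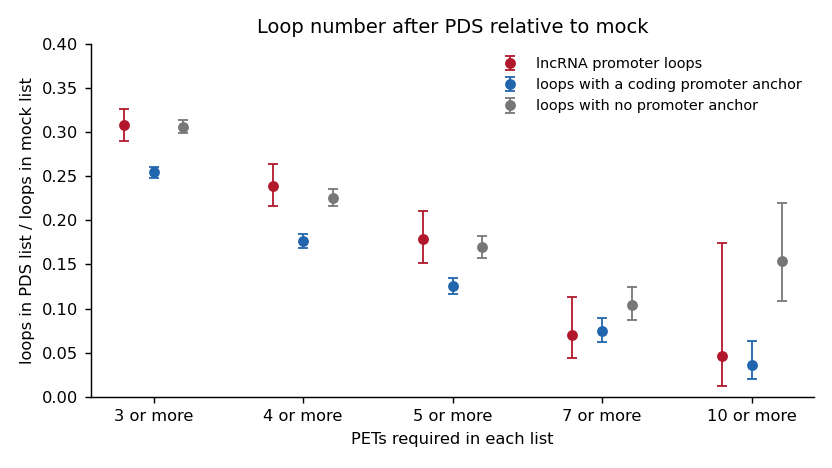
Loops in the PDS list divided by loops in the mock list (y axis) when at least 3, 4, 5, 7 or 10 PETs are required in both lists (x axis), for lncRNA promoter loops, loops with a coding promoter anchor and loops with no promoter anchor; bars are 95% intervals of counting error. The lncRNA promoter loops lie at 0.308, 0.239, 0.178, 0.0703 and 0.0465, above the coding promoter loops up to a minimum of 5 PETs and with overlapping intervals from 7 PETs on.

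Most of the loops listed after PDS were not those listed in mock cells. Of the 4828 mock loops 592 (12.3%, 11.4 to 13.2%) joined the same anchors in the PDS list, beside a background of 11.0% for mock loops of all classes. When the anchors were extended by 5 kb on each side, 34.1% (32.8 to 35.5%) met a PDS loop. Of the 1485 PDS loops 893 were not in the mock list, beside 60.9% over all PDS loops. Being listed again depended on strength: 6.48% of mock lncRNA promoter loops with 3 PETs were found again (5.63 to 7.45%), 21.6% of those with 5 (18.1 to 25.5%), and 69.8% of the 43 with 10 or more (54.9 to 81.4%). At the shares that other loops had at each PET count, 11.2% of the lncRNA promoter loops would have been listed again, just below the interval of the observed 12.3%, and 12.1% when chromosome group and anchor width were matched as well, which lies inside it. Among the 592 shared loops 338 had fewer PETs after PDS, 163 as many and 91 more, that is 57.1% with fewer beside 55.3% over all shared loops. The median log2 difference of the shared loops was -0.42. A split of their summed PETs that takes the floor of 3 in both lists into account put the PDS count at 0.508 of the mock count (0.461 to 0.558, 473 loops of 7 to 19 summed PETs), between the 0.460 of coding promoter loops (0.441 to 0.479) and the 0.523 of loops with no promoter anchor (0.501 to 0.546).

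The ratio differed with the width of the anchors. Loops were divided into 4 bands of like number by the width of their wider anchor, with the narrowest band at up to 7908 bp and the widest at 16223 bp and over. In the narrowest band 1217 mock loops stood against 287 PDS loops (ratio 0.236, 0.207 to 0.268), and in the widest 1178 stood against 489 (ratio 0.415, 0.374 to 0.461), so that the widest band had 1.76 times the ratio of the narrowest (1.49 to 2.08). The share of mock loops listed again went from 5.92% to 20.2% over the same bands. The gradient was present on the 6 chromosomes set apart (1.62 times, 1.32 to 1.99) and on the others (1.77 times, 1.32 to 2.39). Coding promoter loops had it too, from 0.195 in the narrowest to 0.341 in the widest band. Wide anchors also carried more PETs per mock loop, with a mean of 3.61 in the narrowest and 4.08 in the widest band, and the part of PET number in this gradient was not tested. Among loops of at least 5 PETs the ratio was 0.110 in the narrowest band (0.0687 to 0.176) and 0.260 in the widest (0.201 to 0.335). The split of summed PETs among the shared loops was 0.427 (0.314 to 0.567, 55 loops) and 0.538 (0.464 to 0.620, 193 loops), with overlapping intervals.

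The ratio was higher for lncRNA promoter loops remote from coding genes. Where the nearest coding start lay 1 to 5 kb from either anchor of the loop, 672 mock loops stood against 172 PDS loops (ratio 0.256, 0.217 to 0.303). Where it lay over 100 kb away, as at lncRNAs in gene deserts, 1077 stood against 403 (ratio 0.374, 0.334 to 0.420). The ratio of the remote group was 1.46 times that of the near group (1.19 to 1.79), and 14.9% of its mock loops were listed again (12.9 to 17.2%) against 8.63% (6.74 to 11.0%). It was 1.43 times on the 6 chromosomes set apart (1.11 to 1.84) and 1.27 times on the others, where the interval included 1 (0.891 to 1.81). Loops of the remote group also had wider anchors, with a median of 11783 bp against 10551 bp. Within the 4 bands of width the remote group had 1.16, 1.39, 1.55 and 1.36 times the ratio of the near group, and the interval was above 1 only in the third of these (1.04 to 2.30).

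**Figure D2:**
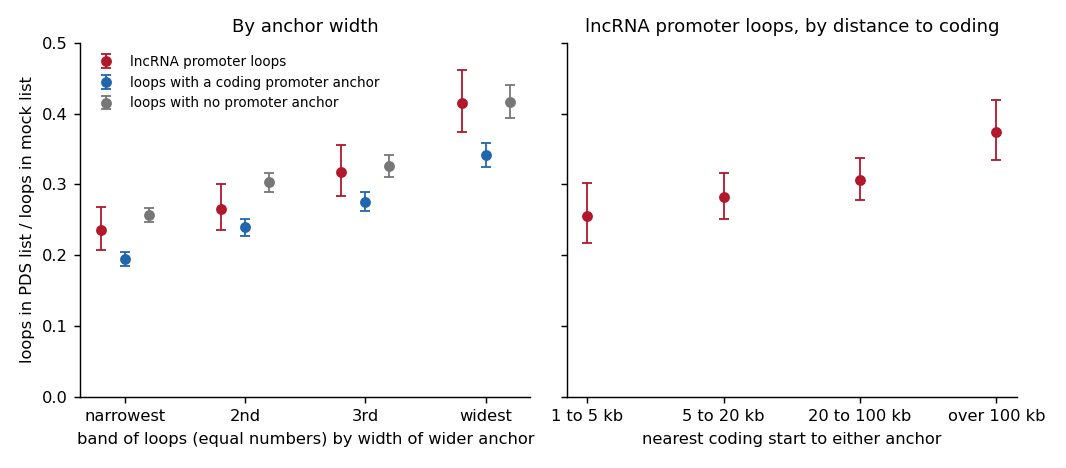
Loops in the PDS list divided by loops in the mock list (y axis), on the left by band of anchor width for 3 classes of loops and on the right by the distance of the nearest coding start from either anchor for lncRNA promoter loops; bars are 95% intervals of counting error. For lncRNA promoter loops the ratio goes from 0.236 in the narrowest to 0.415 in the widest band, and from 0.256 at 1 to 5 kb to 0.374 at over 100 kb.

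What lay at the other end of the loop was also looked at. In the mock list 25.3% of the loops joined a lncRNA start to another stretch of the same lncRNA gene, 5.22% joined different starts of one lncRNA gene, 6.81% joined starts of different lncRNA genes, 13.1% reached into the body of a coding gene and 35.1% ended on no coding or lncRNA gene. Loops that stayed within one lncRNA gene, with its start at one anchor and its body at the other, went from 1617 to 556 (ratio 0.344, 0.312 to 0.379). Loops that left the gene went from 3211 to 929 (ratio 0.289, 0.269 to 0.311), so that loops within the gene had 1.19 times the ratio of the rest (1.05 to 1.34). They were also shorter, with a median distance of 13120.5 bp against 30279.5 bp. Among loops of 5 to 20 kb the comparison gave 1.13 times (0.961 to 1.34) and among longer ones 1.31 times (1.08 to 1.59). The loops that reached into a coding gene had the lowest share listed again, 7.74% (5.90 to 10.1%), and a median distance of 74460 bp.

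The distance between anchors hardly differed between conditions, with a median of 20731.5 bp in the mock list (19693.5 to 21757 bp) and 20237.5 bp in the PDS list. Loops of 10 to 20 kb had the highest ratio, 0.348 (0.313 to 0.387), and those of 5 to 10 kb (0.258, 0.225 to 0.295) and of 100 to 200 kb (0.249, 0.201 to 0.309) the lowest. The other loops had the same order, with 0.313 at 10 to 20 kb, 0.257 at 5 to 10 kb and 0.244 at 100 to 200 kb.

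Because PDS acts on G-quadruplexes, loops were divided by whether a G4 motif, as defined above, lay within 1 kb of a lncRNA start of the anchor. This held for 2000 of the 4828 mock loops (41.4%, 40.0 to 42.8%) and for 37.7% of the PDS loops (35.3 to 40.2%). Counted over start sites instead of loops, 38.2% of the lncRNA starts at these anchors had a motif (37.1 to 39.2%), against 40.4% of all annotated lncRNA starts (40.0 to 40.9%) and 57.6% of coding starts. Loops with a motif went from 2000 to 560 (ratio 0.280, 0.255 to 0.307) and loops without from 2828 to 925 (ratio 0.327, 0.304 to 0.352). The first ratio was 0.856 of the second (0.760 to 0.965). Within the 6 chromosomes set apart it was 0.879 (0.760 to 1.02) and within the others 0.858 (0.696 to 1.06), so each interval then included 1. With the motif looked for anywhere in the anchor rather than at the start the value was 1.00 (0.882 to 1.14), and with only the 5′ end of each gene taken as its start it was 0.930 (0.825 to 1.05). The G and C content of the anchor moved with the motif: in the band of loops with the lowest content 13.9% had a motif and the ratio was 0.338 (0.302 to 0.378), and in the highest band 73.3% had one and the ratio was 0.259 (0.229 to 0.293). Motif and base composition were not separated further, and the share listed again was alike in both groups, at 12.2% (10.8 to 13.7%) with and 12.3% (11.2 to 13.6%) without a motif.

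LncRNA promoter loops were fewer after PDS on each of the 22 autosomes. The lowest ratio was that of chromosome 7, with 120 mock and 18 PDS loops (0.150, 0.0919 to 0.245), and the highest that of chromosome 14, with 411 and 189 (0.460, 0.387 to 0.546). On the 6 chromosomes set apart the ratio was 0.351 (0.327 to 0.377) and elsewhere 0.239 (0.216 to 0.265), the former being 1.47 times the latter (1.29 to 1.66), and these chromosomes held 61.2% of the mock and 69.8% of the PDS loops. On 13 autosomes the ratio was higher for lncRNA promoter loops than for all other loops, and on 2 of them the intervals did not overlap. These were chromosome 14, with 0.460 against 0.359 (0.339 to 0.381), and chromosome 8, with 0.391 (0.282 to 0.541) against 0.226 (0.202 to 0.253).

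**Figure D3:**
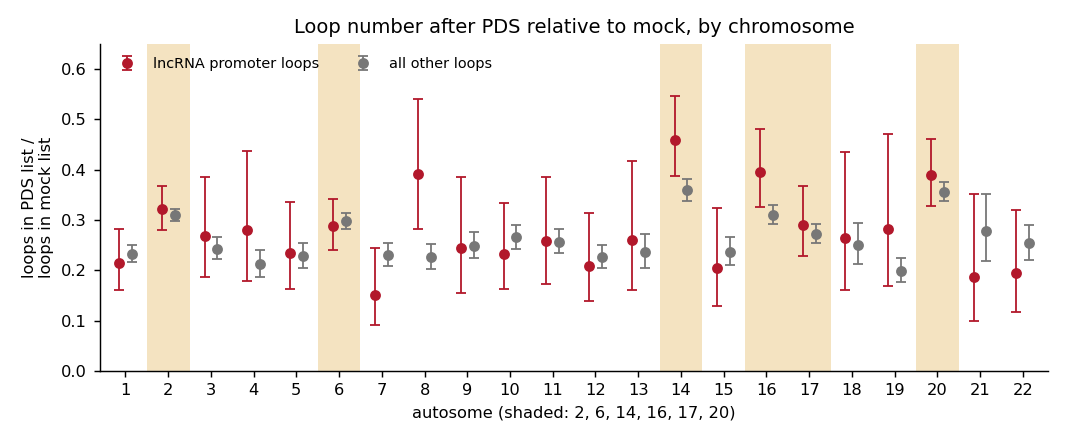
Loops in the PDS list divided by loops in the mock list (y axis) for each autosome (x axis), for lncRNA promoter loops and all other loops, with 95% intervals of counting error and shading for chromosomes 2, 6, 14, 16, 17 and 20. Values for lncRNA promoter loops run from 0.150 on chromosome 7 to 0.460 on chromosome 14, all below 1.

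A total of 3120 lncRNA genes of 18866 annotated had a lncRNA promoter loop, 2811 in the mock and 1259 in the PDS list, through 3308 anchors. At 385 anchors lay starts of more than 1 lncRNA gene, and their loops count for each of these genes. Counts for lncRNA genes, here and below, cover lncRNA promoter loops only. A gene without one can still have a part in the 9375 loops with both a lncRNA start and a coding start, which were not counted by gene. Of the 3120 genes 2451 (78.6%) had fewer loops after PDS, 305 as many and 364 more, and 309 had loops in the PDS list only. Among coding genes with a promoter loop 86.9% had fewer. A gene chosen for many mock loops has little room to have more in the shorter PDS list: of the 243 lncRNA genes with at least 5 mock loops 97.1% had fewer and 14.4% had none listed, and of the 2674 coding genes chosen in the same way 99.6% had fewer and 21.1% none. Chosen by the PDS list instead, 27 of the 36 lncRNA genes with at least 5 PDS loops had fewer than in the mock list. Of the 237 coding genes with at least 5 PDS loops 223 had fewer (94.1%). Of the genes with at least 5 mock loops, LINC00639 (13 mock and 14 PDS loops) and PTCSC3, a thyroid lncRNA (5 and 7), had more after PDS. TRD-AS1 (6 and 6), ENSG00000228793 (8 and 8), ENSG00000286040 (5 and 5), and the overlapping pair LINC02128 and ENSG00000260042 (the same 5 and 5) had as many.

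The gene with most loops was LINC00511, a lncRNA of 350 kb on chromosome 17 (GRCh38, 72290091 to 72640472, minus strand) that is highly expressed in several cancers and has 84 annotated start sites. It went from 49 loops (204 PETs) to 9 loops (31 PETs), a ratio of 0.184 (0.0915 to 0.369), and 6 loops were the same. Its strongest mock loop, of 10 PETs over 6.04 kb inside the gene, was not in the PDS list, and the next went from 9 to 3 and from 8 to 4 PETs. A single shared loop, over 15.4 kb, had more PETs after PDS than before (3 and 4).

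**Figure D4:**
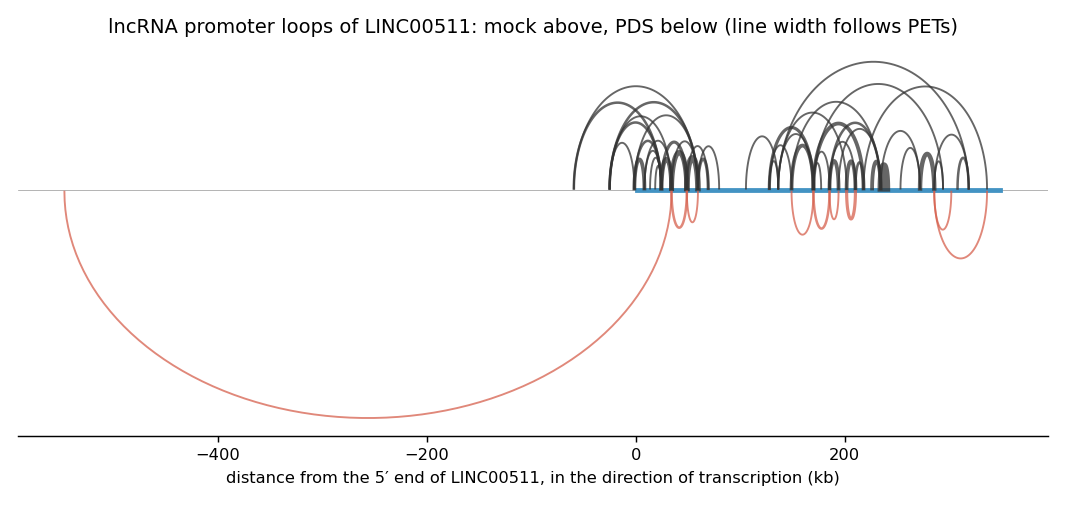
Each arc is a lncRNA promoter loop of LINC00511, drawn above the line for the mock list and below for the PDS list, with line width following its PETs (3 to 10) and position as the distance in kb from the 5′ end of the gene along its transcription. The 49 mock arcs cover the start region and the later part of the gene, and the 9 PDS arcs are fewer and thinner, 1 of them spanning 581 kb.

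MIR193BHG, the precursor gene of miR-193b and miR-365a, held the strongest loop of the set. This loop joined chr16:14310058-14325394 to chr16:14330502-14348614, over 21.8 kb from inside the gene to its 3′ end and beyond, with 20 PETs in the mock and 3 in the PDS list. The gene as a whole went from 16 loops with 87 PETs to 4 loops with 13 PETs, and all 4 were among the mock loops. PELATON, a lncRNA of monocytes and macrophages with an anchor 50321 bp from the start of CEBPB, the gene of a liver transcription factor, went from 17 loops with 87 PETs to 2 loops with 7 PETs. Its strongest mock loops, of 13 PETs over 9.60 kb and of 13 PETs over 7.49 kb, were both absent from the PDS list. Of the 256 mock loops with at least 7 PETs 135 were absent in this way (52.7%, 46.6 to 58.8%), beside 56.8% over mock loops of that strength in all classes.

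Other strong loops that were absent after PDS were at CRMA and MIR1-1HG on chromosome 20 (13 PETs over 41.4 kb), at ENSG00000259048 on chromosome 14 (11 PETs over 12.6 kb), and at LINC01173 on chromosome 2 (10 PETs over 14.2 kb). EPCAM-DT, the divergent partner of the epithelial adhesion gene EPCAM, had such a loop of 9 PETs over 12.8 kb, and LINC01620 one of 9 PETs over 15.0 kb whose far anchor lay partly on HNF4A, the master regulator of hepatocyte genes. Some strong loops joined repeated sequence, where read pairs can be placed at the wrong copy. The loop of LINC03006 on chromosome 7 (13 PETs in mock, not listed after PDS, 691 kb) had 68.5% and 65.1% of the 31-base words of its anchors present elsewhere in the genome, and the loop of MUC20-OT1 on chromosome 3 (14 and 4 PETs, 276 kb) 65.3% and 59.8%. The same was true of ENSG00000259929 on chromosome 16 (11 and 8 PETs, 1590 kb) with 59.8% and 64.3%. Over the 394 anchors examined the median was 9.09%, and 22 were over 50%.

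The lncRNA anchors with most PETs in either list were 14 in number, of which 6 lay on chromosome 14, 5 on chromosome 20, 2 on chromosome 2 and 1 on chromosome 16. The first was ENSG00000286464 (chr14:43283279-43308036), a lncRNA in a gene desert whose nearest coding start, that of FSCB, is 1199247 bp away, which went from 15 loops with 97 PETs to 13 loops with 59 PETs, 7 of them shared. Its loops to either side went from 17 to 10 and from 15 to 9 PETs. LINC00596, near the retinol reductase gene DHRS4, was the next in mock cells, and went from 22 loops with 80 PETs to 3 loops with 14 PETs. Both are on the same chromosome, and the intervals of their number ratios, 0.419 to 1.79 and 0.0435 to 0.428, overlapped only slightly. ENSG00000258860, near NFKBIA, went from 12 loops with 69 PETs to 6 with 27, and ENSG00000258386 from 11 with 62 to 6 with 24. On chromosome 2, ENSG00000287971 went from 8 loops with 55 PETs to 5 with 24, and an anchor of ENSG00000237525, 243824 bp from the fibronectin gene FN1, from 11 with 51 to 3 with 10. The anchor shared by ENSG00000225956 and ISM1-AS1 on chromosome 20 went from 14 loops with 51 PETs to 8 with 32, of which 4 were the same. ENSG00000287886 on chromosome 20, 123728 bp from ZNF217, went from 11 loops with 49 PETs to 1 loop with 3 PETs. Anchors named for many mock PETs have little room to have more in the shorter PDS list. The anchor of LINC00639 was named for its PDS PETs alone. It had 8 loops and 43 PETs in the mock list and 13 loops and 45 PETs in the PDS list. Its number ratio was 1.625 (0.691 to 3.82). Only 3 of these loops were the same, and several of those seen after PDS alone were long, up to 1870 kb for the gene as a whole.

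**Figure D5:**
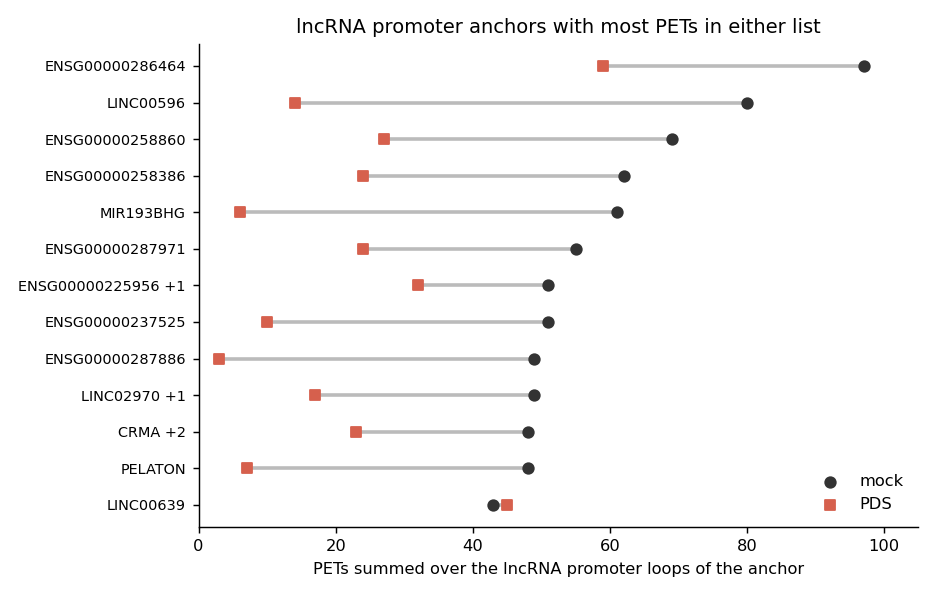
PETs summed over the lncRNA promoter loops of each anchor (x axis) in the mock list (circles) and the PDS list (squares) for the lncRNA anchors with most PETs in either list, 1 of which is not shown, named by their first gene with the number of further genes. ENSG00000286464 goes from 97 to 59, MIR193BHG from 61 to 6 and PELATON from 48 to 7, while LINC00639 lies at 43 and 45.

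Other single loops were named for being among the strongest in mock cells, which leaves little room for more PETs in the shorter PDS list. Those given here had fewer. That of ENSG00000257831 on chromosome 14 went from 19 to 8 PETs over 13.8 kb, with 52.45% and 22.55% of the 31-base words of its anchors present elsewhere. The loop that joins ENSG00000287971 to the anchor of LINC01880, LINC01238, ENSG00000289556 and ENSG00000291147 went from 14 to 7 PETs, that of ENSG00000286052 on chromosome 20 from 14 to 4, and that of SFTA3 on chromosome 14 from 13 to 5.

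The loop with most PETs after PDS was one between lncRNA promoters on chromosome 20, from the anchor of CRMA, MIR1-1HG and ENSG00000264490 (chr20:62540497-62589805) to that of LINC02970 and ENSG00000289634 (chr20:62590785-62618425). It had 15 PETs in the mock and 13 in the PDS list over 39.5 kb, and these anchors were among the widest of all, 49309 and 27641 bp. MIR1-1HG is a precursor gene of the muscle microRNA miR-1. Loops listed after PDS only were led by LINC02300 (9 PETs, 18.9 kb), ENSG00000258342 (8 PETs, 26.6 kb) and NOVA1-DT (7 PETs, 28.6 kb), all on chromosome 14, and ENSG00000226465 on chromosome 20 (7 PETs, 12.9 kb). Of the 165 PDS loops with at least 5 PETs 52 were not in the mock list (31.5%, 24.9 to 39.0%), beside 29.1% of such loops in all other classes, and 24 of the 52 were on chromosome 14 or 20 (46.2%, 33.3 to 59.5%), beside 36.3% (28.0 to 45.5%) of the 113 that were also in the mock list and 25.3% of all PDS lncRNA promoter loops. Among the 91 shared loops with more PETs the largest gain was that of LINC03083 on chromosome 20, from 4 to 8 PETs. ENSG00000261012, which starts beside APOB, the gene of the main protein of liver lipoproteins, had a loop that went from 5 to 8 PETs, while another of its loops, over 94.6 kb, went from 9 PETs to none listed.

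LncRNAs known from liver mostly had few lncRNA promoter loops. Of 19 looked up 9 had any, with 22 loops and 87 PETs in the mock list and 6 loops and 22 PETs in the PDS list. LINC00261, the neighbour of the endoderm factor gene FOXA2, went from 9 loops with 36 PETs to 3 with 11. LINC01554 had 5 loops with 21 PETs and HNF4A-AS1, antisense to HNF4A, 3 loops with 10 PETs, and neither had any after PDS. MIR122HG, the precursor gene of miR-122, the most abundant liver microRNA, had 2 loops with 10 PETs and then 1 loop with 3 PETs that was not among them. HULC, named for its high level in liver cancer, had none in the mock list and 1 loop of 4 PETs in the PDS list, as had LINC00844. The annotation of HULC spans 859 kb with 75 start sites, so this loop (anchor chr6:8785800-8787376) need not lie at the start of its known transcript. LINC01093, LINC01485 and PWRN1 each had 1 loop in the mock list and none in the PDS list. In all 7 of the 9 genes had fewer loops after PDS and 2 had more, beside 78.6% with fewer over all lncRNA genes with a loop.

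Among 11 nuclear and imprinted lncRNAs 5 had lncRNA promoter loops, with 29 in the mock and 5 in the PDS list. The ratio was 0.172 (0.0689 to 0.431, an interval that includes the 0.308 of the whole set). NEAT1, the scaffold of paraspeckles, had 6 loops with 24 PETs in the mock list and none after PDS. MALAT1, an abundant RNA of nuclear speckles, went from 6 loops with 25 PETs to 1 loop, the one inside the gene, which went from 9 to 5 PETs, and a loop of 4 PETs that joined NEAT1 to MALAT1 over 70.8 kb was absent. LINC-PINT, a lncRNA induced by p53, went from 13 loops with 47 PETs to 2 with 7, and the maternally expressed MEG3 from 4 with 13 to 1 with 4. NORAD had 1 loop in each list, so that 4 of the 5 genes had fewer, beside the 78.6% of all lncRNA genes with a loop. Single genes had wide intervals: that of MALAT1 was 0.0264 to 1.05.

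Among precursors of small RNAs, microRNA host genes had a ratio near that of the whole set. Small nucleolar RNA host genes had a lower one with a wide interval. Of 85 microRNA host genes 28 had a lncRNA promoter loop, with 92 mock and 27 PDS loops in all (ratio 0.293, 0.192 to 0.449), and 24 of the 28 had fewer after PDS (78.6% over all lncRNA genes with a loop). MIR29B2CHG, precursor of miR-29b and miR-29c, went from 7 loops with 27 PETs to 1 with 3, MIR4435-2HG from 8 with 27 to 1 with 4, and MIR23AHG, precursor of miR-23a and miR-27a, from 5 with 20 to 1 with 3. MIR34AHG, precursor of the p53 target miR-34a, had 4 loops with 17 PETs in the mock list and none in the PDS list. MIR646HG went from 6 loops (24 PETs) to 5 (15 PETs), of which 2 were the same. Of the other hosts, MIR924HG went from 4 loops to 1, MIR583HG from 3 to none and MIR493HG from 2 to 1. MIR1915HG, MIR3142HG, MIR3936HG, MIR4432HG, MIR600HG, MIRLET7A1HG and MIRLET7IHG, the last 2 being let-7 precursors, each had 2 mock loops, and MIR217HG, MIR4280HG, MIR7-3HG, MIR762HG and MIR9-1HG each had 1, with none in the PDS list. MIR3681HG and MIR663AHG had 3 loops in both lists, MIR2117HG had 1 in both, and MIR4290HG had 1 in the PDS list only. Of 33 small nucleolar RNA host genes 12 had a lncRNA promoter loop (26 mock and 5 PDS loops, ratio 0.192, 0.0763 to 0.484). Of the 12, 10 had fewer after PDS, beside 78.6% of all lncRNA genes with a loop. SNHG17 went from 9 loops with 31 PETs to 1 with 3, its neighbour SNHG11 from 4 with 13 to none, and the imprinted SNHG14 likewise from 4 with 13 to none. DANCR and ZFAS1 went from 2 loops to 1, SNHG10 and SNHG25 from 2 to none, and SNHG16, SNHG28 and SNHG32 from 1 to none, while SNHG12 had 1 in both lists and SNHG7 had 1 in the PDS list only. The intervals of both lists included the 0.308 of all lncRNA promoter loops.

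Of 21 cancer lncRNAs 12 had lncRNA promoter loops, with 76 in the mock and 23 in the PDS list (ratio 0.303, 0.191 to 0.481). LINC00511 supplied 49 of the 76. In all 9 of the 12 had fewer loops after PDS, beside 78.6% of all lncRNA genes with a loop. DLEU1, from the region of chromosome 13 lost in chronic lymphocytic leukaemia, went from 8 loops with 27 PETs to 3 with 12, and its neighbour DLEU2, precursor of miR-15a and miR-16, from 2 with 7 to none. LINC00963 went from 3 loops with 16 PETs to 1 with 3 and CASC19 from 4 with 12 to 1 with 3, while CCAT2, HEIH and UCA1 each had 1 loop in the mock list only. CASC15 had 2 loops in each list, none of them the same, and PCAT1 had the same loop in both. PVT1, the neighbour of MYC, had more loops after PDS, 6 with 23 PETs against 4 with 18, and 1 loop in common that went from 7 to 5 PETs. Its number ratio of 1.50 had an interval of 0.455 to 4.95.

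LncRNAs were also grouped by kind, as the name gives it. Intergenic genes named LINC supplied 1332 mock and 443 PDS loops (ratio 0.333, 0.299 to 0.370), and genes known by an identifier only 3166 and 968 (0.306, 0.285 to 0.329). Antisense genes had the highest ratio, 0.366 (320 and 117 loops, 0.296 to 0.452), and divergent partners of coding promoters the lowest among classes with more than 4 loops, 0.218 (78 and 17 loops, 0.130 to 0.366). The first was 1.68 times the second (0.953 to 2.95). On the 6 chromosomes set apart, which held 84.6% of the divergent and 52.2% of the antisense mock loops, it was 2.10 times (1.09 to 4.05), and on the others, with 12 divergent mock loops, 0.941 times (0.290 to 3.05). Since a divergent lncRNA commonly starts next to a coding start, only 4.92% of the 589 annotated ones had a loop in the set, against 28.0% of the 2265 LINC genes.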

How the data were processed

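POLR2A HiChIP libraries of 2 mock and 2 PDS replicates had been processed by the authors with HiC-Pro 3.1.0 on GRCh38, per the submitters' processing notes. The deposited values are counts of PETs per loop, in 1 list per condition that combines the replicates. The tool that called loops and anchors is not given in the sources used here. Starts and gene bodies came from GENCODE 44, and loops were classed with a window of 1000 bp. The same loop meant the same anchors, which never overlap one another. Ratios carry 95% intervals from Wilson's interval of the PDS share, ratios of ratios log-normal intervals from the 4 counts, and shares Wilson intervals. All cover counting error only, since the replicates are combined and loops share anchors. The functions were tested on simulated data. RefSeq promoters were matched by symbol: 56 of 91 named lncRNA genes had one and 39 had it on their own anchors. Python 3.11.15, scipy 1.17.1 and pysam 0.24.0 were used.

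The set of loops and the gene lists were chosen with earlier results of these data known. Named were the 12 lncRNA anchors with most mock PETs, the 8 with most PDS PETs, the 10 strongest loops of each list, and every listed gene (liver, nuclear and imprinting, cancer, small RNA hosts) with a loop, except 1 anchor that is not reported here. Genes with unchanged loop number, strong loops found in 1 list only and shared loops with more PETs were named after their values were seen. Alternatives changed the PET minimum, promoter window, start sites, exclusion rule, distance range, chromosomes, strongest anchor, scaling, overlap and motif. The rule left out 9375 loops with both a lncRNA start and a coding start, on the same anchor or on different ones. It also left out 1119 with a lncRNA start inside one coding gene.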

Additional observations from a re-analysis of the deposited data

How the results depend on the processing

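No paired analysis was possible because each list combines its replicates, and leaving out a replicate was not possible for the same reason. Of 91 alternative values 52 stayed inside the main 95% interval. At 4 or more and at 5 or more PETs the number ratio was 0.239 and 0.178, the PET ratio 0.217 and 0.162, the share of mock loops listed again 10.4% and 8.32% (at other loops' shares 8.40% and 6.79%), the median distance 16716.8 and 14978 bp, the share reaching into a coding gene 10.7% and 7.68%, and the ratio over that of coding promoter loops 1.35 and 1.42. The share with a G4 motif was 42.9% at 5 or more PETs. Without chromosomes 2, 6, 14, 16, 17 and 20 these values were 0.239, 0.217, 7.69% (7.74%), 17235 bp, 14.9% and 1.06, with a motif at 44.8%. With the 5′ end of each gene as its only start the PET ratio was 0.269, the distance 24992.5 bp, the share reaching into a coding gene 23.9% and the ratio over coding promoter loops 1.29. With loops inside one coding gene kept, the motif share was 39.2%, the distance 19368.5 bp and the share reaching into a coding gene 26.2%. Within 5 to 200 kb the distance was 18129.2 bp and that share 11.4%. Extending anchors by 5 kb raised the share listed again to 34.1%. Dividing PETs by the total of each list turned the PET ratio to 1.07. The motif share was 57.4% with spacers of 1 to 12, 99.1% with runs of 2 G and 69.6% anywhere in the anchor. With runs of 2 G, where few loops were without a motif, the ratio with over without a motif was 0.758 (0.430 to 1.34). With the motif looked for anywhere in the anchor this ratio turned to 1.00 (1.00046). The other settings, among them windows of 500 and 2500 bp and leaving out the strongest anchor, kept every value inside its interval. The causes were not tested. Lists that start at 3 PETs limit what can be said of weaker contacts.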

Other observations

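The 1119 loops with a lncRNA start whose anchors both lay inside one coding gene, which the rule left out, went from 933 in the mock to 299 in the PDS list, a ratio of 0.320 (0.281 to 0.365), with 12.1% of the mock loops listed again (10.2 to 14.4%). The split of summed PETs in their shared loops was 0.696 (0.570 to 0.844), above the 0.508 of lncRNA promoter loops (0.461 to 0.558) with intervals that did not overlap. Loops with both a lncRNA start and a coding start, on the same anchor or on different ones, numbered 9375. They stand among the coding promoter loops.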
